A study of Homo sapiens with 4 samples.

Results

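The mRNAs described here encode the kinases and scaffold proteins that fire replication origins. They are 10 of the 63677 genes counted in 4 RNA-seq libraries of HCT116 cells, a human colorectal cancer line, and were chosen by name as the genes CDC7, DBF4, DBF4B, TOPBP1, TICRR, MTBP, RECQL4, CDK2, CCNE1 and CCNE2, each found once among the counted Ensembl identifiers. The anti-GAA antisense oligonucleotide (ASO), designed to deplete transcripts with tandem GAA repeats, was transfected for 2 of the libraries and a non-targeting control ASO for the other 2. The labels give 48 h of transfection for every library, while the study's methods state a shorter one, and the libraries carry the numbers 232 (replicates 1 of either ASO) and 234 (replicates 2). All 4 carry an ASO, so its effect is read against the control ASO and not against untransfected cells. The study's methods describe the duplicates as separate experiments, and the labels say nothing further of them.

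Firing turns a licensed origin, where an inactive MCM helicase sits on DNA, into a pair of working forks. Kinases of different kinds are needed for this step. In the kinase formed by CDC7 with DBF4 or DBF4B the catalytic subunit phosphorylates MCM proteins, while CDK2, bound to cyclin E or cyclin A, phosphorylates TICRR (Treslin). Phosphorylated TICRR, held by its partner MTBP, binds the BRCT repeat scaffold TOPBP1, and with RECQL4 these proteins bring CDC45 and GINS to MCM. TICRR, MTBP, TOPBP1, RECQL4 and DBF4 are often described as limiting for firing, because their proteins are scarce next to the number of licensed origins, whereas cyclin E and CDK2 also drive the wider entry into S phase. The values below are of mRNA in whole cells, with none for the proteins or their phosphorylation, and in such bulk samples fewer cells expressing a gene and less of its RNA per cell cannot be told apart.

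With the anti-GAA ASO, 0 of the 10 mRNAs reached the threshold (adjusted p under 0.05, edgeR's quasi-likelihood test), and 0 of 10 passed at an unadjusted p under 0.05, with DESeq2 also giving 0 and 0. Among all 15116 tested genes, 0% passed the adjusted threshold in edgeR (0.0331% in DESeq2) and 4.48% the unadjusted one (2.76% in DESeq2). In edgeR, 3.46% of all tested genes passed the unadjusted threshold as lower with the anti-GAA ASO and 1.02% as higher. TOPBP1 was the member with the lowest log2 fold change, at −0.40, and DBF4B the member with the highest, at 0.34. In those 2 mRNAs the libraries of the ASOs did not overlap, while the other 8 overlapped, and across all tested genes the libraries did not overlap in 32.4%. The limiting factors lay on either side of 0, as did the cyclin E and CDK2 mRNAs. All 10 passed the filter on low counts.

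**Figure D1:**
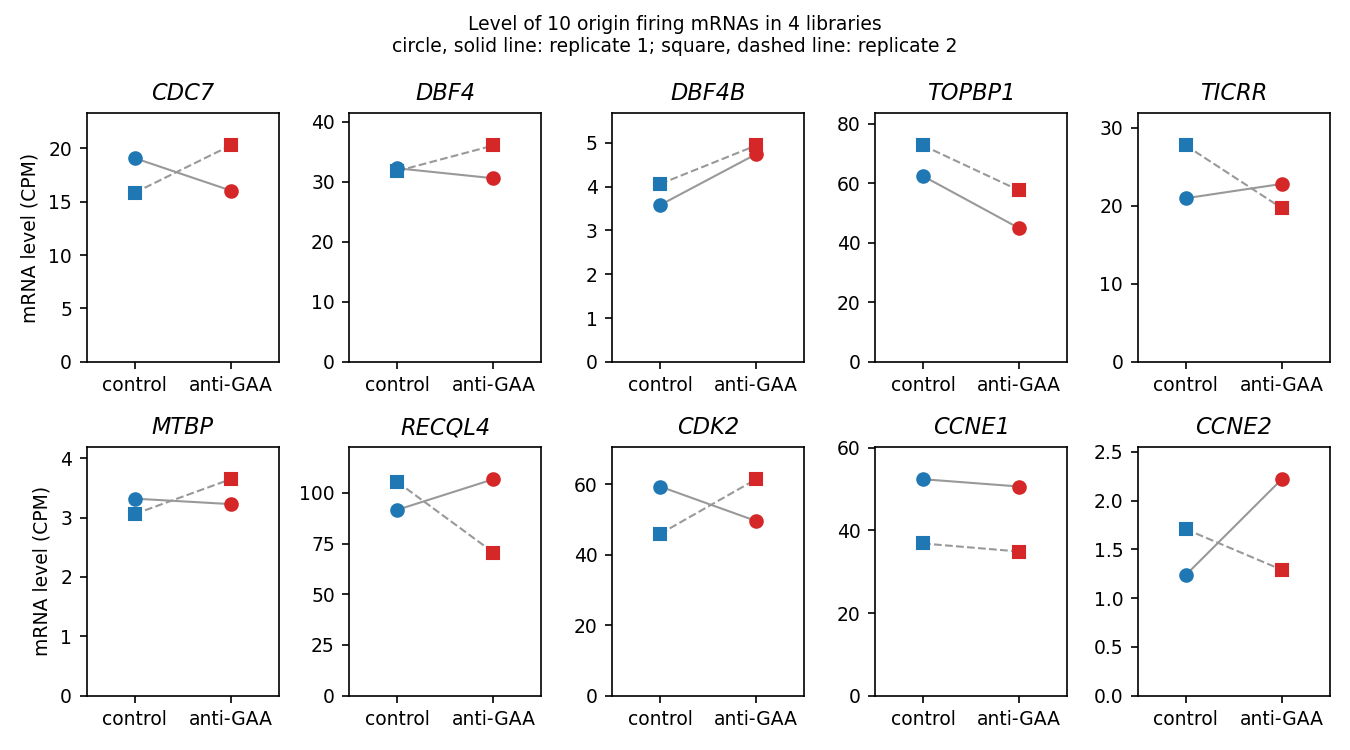
Level of each of the 10 mRNAs in CPM (counts scaled to library size, vertical axis from 0) in the control ASO (blue) and anti-GAA ASO (red) libraries, with circles and solid lines for the pair of replicates 1 and squares and dashed lines for the pair of replicates 2. TOPBP1 is lower and DBF4B higher in both pairs, CCNE1 differs more by replicate than by ASO, and the lines of the other 7 slope in opposite directions.

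The target of the ASO is a run of GAA, so the transcripts were searched for it on the RNA strand. In the longest GENCODE transcript of each gene, the longest perfect GAA run, in any frame, ranged from 5 nt in CDK2 to 10 nt in DBF4, and 0 of the 10 held a run of at least 12 nt, against 2.52% of the 14751 tested genes with a transcript sequence (median run 7 nt). Runs of at least 10 nt were found in 9.42% of those genes and runs of at least 9 nt in 19.7%. Over the whole gene with its introns, only TICRR among the 10 held a run of at least 12 nt, as did 11.3% of tested genes. In any annotated transcript, MTBP reached 11 nt and CDK2 7 nt. Runs are shown with their flanks for DBF4, with the longest run in the longest transcripts, for the intron of TICRR, with the longest run of any of the genes, for TOPBP1 and DBF4B, whose libraries did not overlap, and for CCNE1 as the main cyclin E mRNA, on the RNA strand from 5′ to 3′, with the run in capitals. They lie in a coding exon of DBF4 (chr7:87900820-87900829, plus strand), in a coding exon of TOPBP1 (chr3:133659098-133659106, minus strand), in an intron of TICRR (chr15:89607963-89607975, plus strand), in a coding exon of DBF4B (chr17:44722907-44722913, plus strand) and in a coding exon of CCNE1 (chr19:29817195-29817201, plus strand), all on GRCh38.
DBF4, exon 10: gttgaaagAGAAGAAGAAaaaaggat
TOPBP1, exon 3: gattattacAGAAGAAGAggcattgaa
TICRR, intron: agtcAGAAGAAGAAGAAagaa
DBF4B, exon 3: ggaaaatgccAGAAGAActcaccaggt
CCNE1, exon 5: acacctgacaAAGAAGAtgatgaccgg
The run of DBF4 is 10 nt long and that of TOPBP1 9 nt, and the intronic run of TICRR, at 13 nt, is the longest in any of the 10 genes. DBF4, with the longest run in the longest transcripts, was at a log2 fold change of 0.06, and TOPBP1, with the next one, at −0.40. MTBP, whose longest transcript has no coding sequence, was at 0.11. Its longest run in any annotated transcript, at 11 nt, exceeds that of DBF4.

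CDC7 (ENSG00000097046, chromosome 1, 91500851 to 91525764) encodes the catalytic subunit of the MCM kinase. Its mRNA was at 16.0 CPM in replicate 1 and 20.3 CPM in replicate 2 of the anti-GAA libraries, and at 19.1 and 15.8 CPM in the same order in the control libraries. Each ASO thus had a high and a low library, in opposite replicates. The log2 fold change, anti-GAA over control, was 0.06 (standard error 0.25, 95% interval −0.52 to 0.64, adjusted p = 0.996 from edgeR), and the pairs gave −0.25 (232) and 0.35 (234).

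DBF4 (ENSG00000006634, chromosome 7, 87876216 to 87909553), the activating subunit of that kinase, was at 30.6 and 36.0 CPM in the anti-GAA libraries and at 32.2 and 31.8 CPM in the control libraries. The control libraries lay within the range of the anti-GAA libraries. Its log2 fold change of 0.06 had the smallest standard error of the 10 (0.21), and its 95% interval, from −0.43 to 0.55, covers folds of 0.743 to 1.46. The ratio of CDC7 to DBF4 mRNA per exon length was 0.670 and 0.718 in the anti-GAA libraries and 0.756 and 0.636 in the control libraries, the former lying within the latter.

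DBF4B (ENSG00000161692, chromosome 17, 44708608 to 44752264), which encodes an alternative activating subunit of CDC7, was at 4.74 and 4.94 CPM in the anti-GAA libraries and at 3.58 and 4.06 CPM in the control libraries. Both anti-GAA libraries were above both control libraries, as in 15.5% of all tested genes. The log2 fold change was 0.34 (standard error 0.32, 95% interval −0.42 to 1.10, adjusted p = 0.996 from edgeR), and the pairs gave 0.39 and 0.27, a mean of 0.33 ± 0.08 (SD, n = 2 pairs). These levels rest on 47 and 88 reads in the anti-GAA libraries and 55 and 69 in the control libraries. Counting error alone gives exact 95% Poisson intervals of 3.48 to 6.31 and 3.96 to 6.08 CPM for the former and 2.70 to 4.66 and 3.16 to 5.14 CPM for the latter, which overlap. Without any 1 of the 4 libraries the log2 fold change stayed between 0.24 and 0.44. The ratio of DBF4 to DBF4B mRNA per exon length was 10.03 and 11.3 in the anti-GAA libraries and 14.0 and 12.2 in the control libraries, so DBF4 was the more abundant activator in every library. With the length of the longest transcript in place of the joined exons, the ratio was 5.32 and 6.02 in the anti-GAA libraries and 7.42 and 6.46 in the control libraries.

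TOPBP1 (ENSG00000163781, chromosome 3, 133598175 to 133662380) encodes the scaffold that joins the phosphorylated factors and also activates the checkpoint kinase ATR. Its mRNA was at 44.9 and 57.6 CPM in the anti-GAA libraries and at 62.4 and 72.6 CPM in the control libraries. Both anti-GAA libraries were below both control libraries, which held for 16.9% of all tested genes. The log2 fold change was −0.40 (standard error 0.22, 95% interval −0.92 to 0.13, adjusted p = 0.996 from edgeR), a fold of 0.760 with an interval of 0.527 to 1.10. The pairs gave −0.47 and −0.33, a mean of −0.40 ± 0.10 (SD, n = 2 pairs). Leaving out each library in turn left it between −0.59 and −0.23. The lowest library held 445 reads, which give an exact 95% Poisson interval of 40.8 to 49.3 CPM, below both control libraries. The interval of anti-GAA replicate 2, 54.1 to 61.2 CPM, overlapped that of control replicate 1, 58.5 to 66.4 CPM.

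TICRR (ENSG00000140534, chromosome 15, 89575469 to 89631056) encodes Treslin, the main CDK substrate in firing. It was at 22.8 and 19.7 CPM in the anti-GAA libraries and at 21.0 and 27.7 CPM in the control libraries. A single library, replicate 2 of the control ASO, stood above the other 3. The log2 fold change was −0.20 (standard error 0.24, 95% interval −0.77 to 0.37), from pairs of 0.12 and −0.49, and it was 0.02 without that library.

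MTBP (ENSG00000172167, chromosome 8, 120445400 to 120542133), whose protein is the partner of Treslin, had 3.23 and 3.65 CPM in the anti-GAA libraries and 3.32 and 3.06 CPM in the control libraries. These 4 values rest on 32 to 65 reads and lay closer together than their counting error, since the exact 95% Poisson intervals ran from 2.21 to 4.56 CPM at the shallowest and from 2.82 to 4.65 CPM at the deepest library. The log2 fold change was 0.11 (standard error 0.34, 95% interval −0.70 to 0.93).

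RECQL4 (ENSG00000160957, chromosome 8, 144511288 to 144517845), a RecQ family helicase whose N-terminal part serves in initiation, had the highest level per exon length of the 10. It was at 106.7 and 70.6 CPM in the anti-GAA libraries and at 91.7 and 105.4 CPM in the control libraries. The anti-GAA libraries held both the highest and the lowest value. The pairs went apart by more than those of any other limiting factor, at 0.22 and −0.58, around a log2 fold change of −0.15 (standard error 0.25, 95% interval −0.75 to 0.44), which was 0.12 when anti-GAA replicate 2 was left out.

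CDK2 (ENSG00000123374, chromosome 12, 55966781 to 55972789), the S phase kinase, was at 49.5 and 61.4 CPM in the anti-GAA libraries and at 59.3 and 45.9 CPM in the control libraries. As with CDC7, the anti-GAA library was the lower of its pair in 232 and the higher in 234. Its log2 fold change was 0.08 (standard error 0.23, 95% interval −0.47 to 0.63), with −0.26 and 0.42 in the pairs.

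CCNE1 (ENSG00000105173, chromosome 19, 29811991 to 29824312), which encodes cyclin E1, was at 50.6 and 34.9 CPM in the anti-GAA libraries and at 52.4 and 36.8 CPM in the control libraries. Replicates 2 were lower than replicates 1 by 0.54 on the log2 scale with the anti-GAA ASO and by 0.51 with the control ASO, while the ASOs differed by only −0.05 and −0.08 within the pairs. It was the member with the closest pairs (SD 0.02, n = 2 pairs). In the fit without the pairing the log2 fold change was −0.06 (standard error 0.28, 95% interval −0.72 to 0.60).

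CCNE2 (ENSG00000175305, chromosome 8, 94879770 to 94896678), the paralogue that encodes cyclin E2, had 2.22 and 1.29 CPM in the anti-GAA libraries and 1.24 and 1.71 CPM in the control libraries. Only 22 and 23 reads, against 19 and 29, stand behind these levels, and their exact 95% Poisson intervals of 1.39 to 3.36, 0.818 to 1.94, 0.745 to 1.93 and 1.14 to 2.45 CPM all overlap. The log2 fold change of 0.22 had the largest standard error of the 10 (0.48), with a 95% interval of −0.92 to 1.36. In GENCODE on GRCh38, 37.1% of the exon length of CCNE2 is also exon of a gene on the opposite strand, mostly INTS8, which was at 19.7 to 28.6 CPM. How the authors set the strand when counting is not given in the sources used here, and without strand the reads of the shared stretch cannot be told apart. Of the other 9 mRNAs, CDK2 shared most exon sequence with other genes, at 16.8% of its exon length, with an antisense gene that had 0 reads as its largest partner, and TICRR overlapped in 6.999%, with KIF7 at no more than 0.118 CPM.

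**Figure D2:**
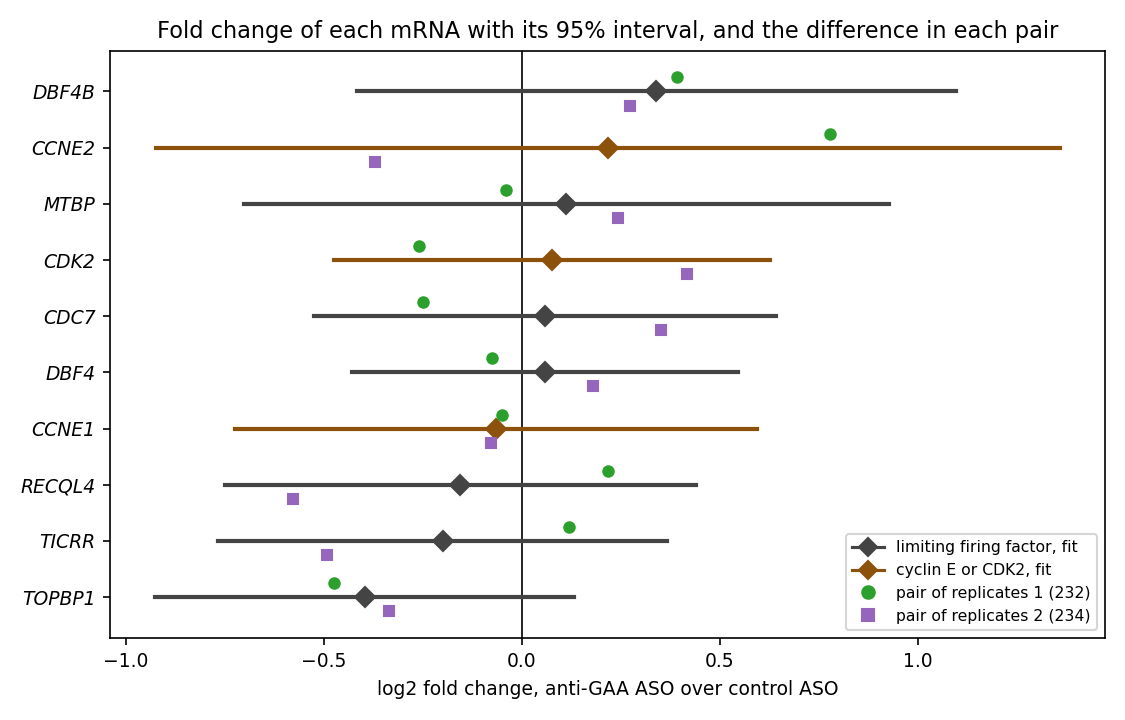
Log2 fold change of each mRNA, anti-GAA over control ASO (horizontal axis), from edgeR's fit without the replicate number as a term (diamonds, with bars for the 95% interval), and the difference in log2 CPM in the pair of replicates 1 (green circles) and replicates 2 (purple squares). Every interval includes 0, and the pairs fall on the same side of 0 only in TOPBP1, CCNE1 and DBF4B.

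The pairs gave opposite signs in 7 of the 10 mRNAs, compared with 38.2% of all tested genes. In CDC7, DBF4, MTBP and CDK2 the anti-GAA library was the lower in 232 and the higher in 234, and in TICRR, RECQL4 and CCNE2 the reverse. Of the remaining 3, TOPBP1 and CCNE1 were lower in both pairs (30% of all tested genes) and DBF4B was higher in both (31.8%). In 7 of the 10, the difference between the replicates of an ASO was larger, with either ASO, than the log2 fold change between the ASOs. MTBP is among these 7 only narrowly, with −0.113 between the control replicates and a log2 fold change of 0.112. The share over all tested genes was not computed, so this count is not particular to the firing mRNAs. For 8 of the 10 the 95% interval lay between −1 and 1 on the log2 scale, the exceptions being DBF4B and CCNE2, whose upper limits were 1.10 and 1.36. Changes of 2-fold or more lie outside the intervals of those 8.

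The kinase CDC7 with its activators and the scaffold group, together called limiting factors here, were compared with the cyclin E and CDK2 mRNAs. The median log2 fold change was 0.06 for CDC7, DBF4, DBF4B, TOPBP1, TICRR, MTBP and RECQL4 (n = 7 mRNAs, 4 above and 3 below 0) and 0.08 for CDK2, CCNE1 and CCNE2 (n = 3 mRNAs, 2 above and 1 below 0), against 0.01 for all tested genes, of which 51.6% were above 0. Scaled to library totals without TMM factors, CDC7, DBF4 and CDK2 were at −0.03, −0.03 and −0.01. The difference of the medians, limiting factors minus cyclin E and CDK2, was −0.02. It was 0.01 in the pair 232 and 0.26 in the pair 234 (SD 0.18, n = 2 pairs), so the pairs differed from each other by more than the groups did. Leaving out anti-GAA replicate 1 made the difference 0.36, and leaving out anti-GAA replicate 2 made it −0.25. Members of a group are not replicates, and no test was made of these medians.

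Levels were compared between the genes per kilobase of exon, as RPKM computed here from the counts and the joined exon length. With the control ASO, RECQL4 was highest, at 21.8 ± 2.14 RPKM (SD, n = 2 here and below), followed by CCNE1 at 18.1 ± 4.47 and CDK2 at 13.5 ± 2.44. Neighbours among these 3 overlapped between libraries. TOPBP1 at 9.20 ± 0.99, DBF4 at 6.97 ± 0.068, CDC7 at 4.85 ± 0.64 and TICRR at 2.89 ± 0.57 RPKM followed, each apart from the next in both libraries. DBF4B at 0.535 ± 0.048, MTBP at 0.383 ± 0.022 and CCNE2 at 0.335 ± 0.076 RPKM were lowest, MTBP and CCNE2 overlapping. With the anti-GAA ASO the order was the same except that DBF4 (7.25 ± 0.84 RPKM) stood above TOPBP1 (6.98 ± 1.22 RPKM), and these 2 overlapped. CCNE1 exceeded CCNE2 by 38.6 to 75.7 times over the 4 libraries, and TICRR exceeded its partner MTBP by 5.34 to 8.96 times, or by 2.68 to 4.50 times with the length of the longest transcript in place of the joined exons. With that length the control means of DBF4B and MTBP were 1.27 and 0.945 RPKM, and the order of the 10 was the same. For MTBP the longest transcript, of 3375 nt, has no coding sequence. The kinase CDK2 was at 0.619 and 1.11 times the level of CCNE1 with the anti-GAA ASO and at 0.717 and 0.789 times with the control ASO. The low CCNE2 level carries the strand limit given above.

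**Figure D3:**
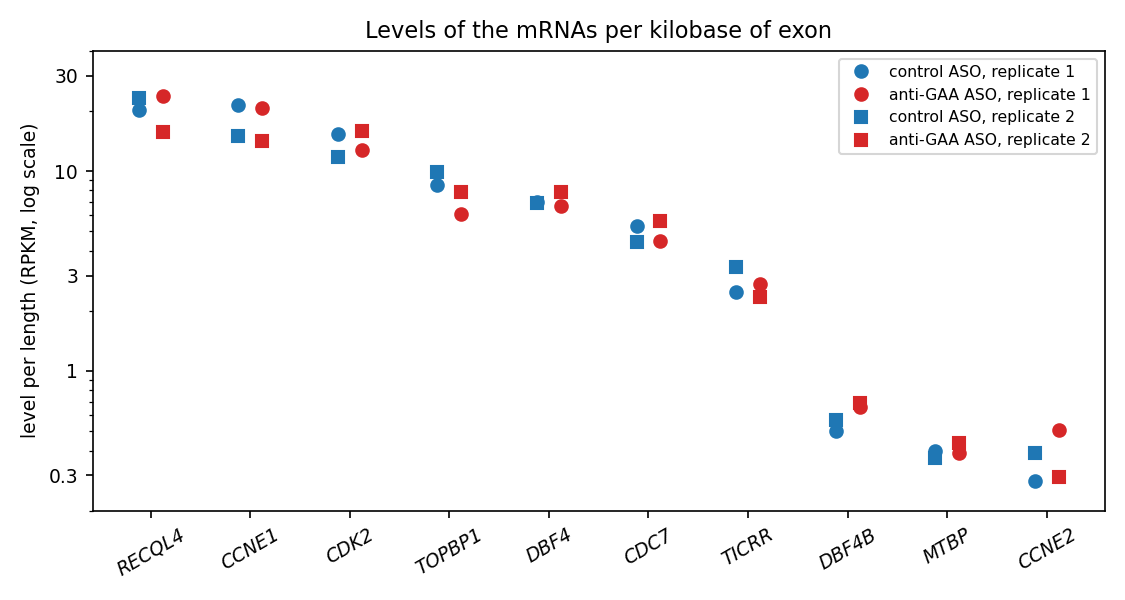
Level of each mRNA per kilobase of exon (RPKM, log scale) in the control (blue) and anti-GAA (red) libraries, circles for replicates 1 and squares for replicates 2, in the order of the control means. RECQL4, CCNE1 and CDK2 lie at 11.8 RPKM or more in every library, and DBF4B, MTBP and CCNE2 at 0.691 RPKM or less.

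Firing genes are commonly transcribed under E2F, and RefSeq promoter windows (GRCh38.p14, 250 bases before to 50 after the start) were matched by symbol for 6 of the 10 genes. The letters TTTCCCGC, TTTGGCGC, TTTCGCGC and TTTGCCGC, forms of the E2F consensus, were searched on both strands and found in CDC7 and TOPBP1, and in 3.31% of all 35116 windows. The windows of DBF4, DBF4B, TICRR and CCNE1 held none. The 3.31% counts windows and not genes, and CDC7 and TICRR each had more than 1 window. In CDC7, where the letters fell in 1 of its windows, the matches lie 68 and 34 bases before the start (windows chr1:91501035-91501060 and chr1:91501069-91501094, plus strand), and in TOPBP1 7 bases before it (chr3:133661932-133661957, minus strand). They are shown with the matched letters in capitals.
CDC7, distal: gcagttcctTTTCCCGCcccccttcg
CDC7, proximal: cgacctgcgGCGGGAAAgtcgcgcgc
TOPBP1: gcgcggttgGCGCGAAAgtcggttcc
Of these genes CDC7 was at a log2 fold change of 0.06 and TOPBP1 at −0.40. A match of letters shows neither binding nor control.

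Other genes of the same pathway were read from the same fit. Of 15 further genes of helicase activation and the fork, all tested, 0 passed the adjusted threshold in edgeR and 0 an unadjusted p under 0.05, with a median log2 fold change of 0.06 and 8 above and 7 below 0. The median was −0.11 without anti-GAA replicate 1, −0.06 without control replicate 2 and −0.03 with library totals. The lowest was WDHD1, a fork protein with a 17-nt GAA run in its longest transcript, at 17.5 and 11.6 CPM in the anti-GAA libraries and 32.7 and 18.2 CPM in the control libraries (log2 fold change −0.82, standard error 0.35). The highest was the GINS subunit GINS4, at 0.64 (standard error 0.42), which rests on 31 to 47 reads. Besides WDHD1, runs of at least 12 nt were held in that list by TIMELESS (16 nt), CLSPN (15 nt) and POLE3 (12 nt). Their log2 fold changes were −0.44, −0.26 and −0.15, with pairs of 0.15 and −1.35 in CLSPN. In the G1/S and G2/M lists given below, CHAF1A and TOP2A each held a 12-nt run. CHAF1A was at a log2 fold change of 0.11, with pairs of 0.43 and −0.28, and TOP2A at −0.47. Whether run length bears on these values was not tested. Of 10 genes that oppose firing or act in the checkpoint, 0 passed the adjusted threshold. The unadjusted one was passed by 1 (ATR, lower), as by 4.48% of all tested genes. The median of the 10 was −0.16, with 4 above and 6 below 0. It lay at −0.44 in the pair 232 and at 0.30 in the pair 234, and was 0.24 without control replicate 1. ATR, the kinase that TOPBP1 activates and that restrains firing, was the lowest of them. It was at 7.47 and 7.69 CPM in the anti-GAA libraries and at 13.0 and 13.5 CPM in the control libraries, with a log2 fold change of −0.80 (standard error 0.25, adjusted p = 0.987 from edgeR) and −0.78 and −0.81 in the pairs. The phosphatase subunit PPP1CB was the highest, at 0.21 (standard error 0.26).

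Of 12 regulators of cyclin E and CDK2, 11 were tested, CCNA1 being below the filter. The adjusted threshold was passed by 0 and the unadjusted one by 1 (FBXW7, lower), as by 4.48% of all tested genes. The median of the 11 was 0.08, with 6 above and 5 below 0. That median was between −0.10 and −0.03 on leaving out any of the 4 libraries, and −0.01 with library totals. FBXW7, the ubiquitin ligase subunit that marks cyclin E for degradation, was the lowest, at 13.2 and 10.9 CPM in the anti-GAA libraries and 21.9 and 16.5 CPM in the control libraries (log2 fold change −0.68, standard error 0.26, adjusted p = 0.996 from edgeR). CDKN1C, a CDK inhibitor, was the highest, at 0.29 (standard error 0.51). The 11 E2F and RB genes had a median of 0.01, from RB1 at −0.40 to E2F3 at 0.17, with 0 past either threshold. The median was −0.09 without control replicate 2 and also with library totals.

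The mRNAs of firing factors vary over the cell cycle, and genes of its phases are therefore given beside them. Of 15 G1/S genes, 14 were joined to the counts and tested, with a median of 0.11, 12 above and 2 below 0, from HELLS at −0.09 to RRM1 at 0.30. The 12 G2/M genes had a median of 0.12, 9 above and 3 below 0, from TOP2A at −0.47 to CDC20 at 0.32. The G1/S median was 0.01 with library totals, and in the pairs it was 0.00 (232) and 0.11 (234). The G2/M median was 0.00 and 0.28 in the pairs, −0.09 without anti-GAA replicate 1, −0.13 without control replicate 2 and 0.31 without control replicate 1. In both lists 0 genes passed the adjusted threshold and 0 the unadjusted one. Their part in the values of the firing mRNAs was not tested.

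The library totals ran from 10538284 (replicate 1 with the anti-GAA ASO) to 17894953 counts (replicate 2 with the anti-GAA ASO), so the anti-GAA pair held both extremes of depth. The cells expressed the epithelial genes EPCAM, KRT8, KRT18, CDH1 and CLDN4, from 34.6 to 738.9 CPM. Each of these 5 was lower in both anti-GAA libraries than in both control libraries, as were 16.9% of all tested genes. The log2 fold changes of the 5 ran from −0.54 (KRT18) to −0.21 (EPCAM), with 0 past the adjusted threshold in edgeR. An unadjusted p under 0.05 was found for 1 (KRT18), as for 4.48% of all tested genes. The part of the 5 in the values of the firing mRNAs was not tested. Among markers of lymphoid, fibroblast and endothelial cells, CD3E, COL1A2, PECAM1 and DCN had 0 counts, which allows up to 3 counts in a library, and PTPRC and CDH5 had at most 5 counts, while COL1A1 was at 10.1 to 14.5 CPM.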

How the data were processed

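RNA-seq of HCT116 cells was analysed, with 2 libraries for each ASO. The authors deposited raw, unnormalized counts for each Ensembl gene. Per the methods and labels, reads were trimmed with Trimmomatic, aligned with STAR to hg19, cleared of GL contigs and counted with featureCounts. The Ensembl release and strand setting are not given in the sources used here, and the methods name a stranded mRNA kit where the labels name a total RNA kit. All 4 columns of values were used (0 left unused). In R 4.3.3, edgeR 4.0.16 was run on the 15116 genes that filterByExpr retained, with TMM factors and the quasi-likelihood F-test, the ASO being the only term. The Benjamini-Hochberg adjustment covered every gene tested. Standard errors are the log2 fold change divided by the root of F. CPM are TMM-scaled, and a pair's value is log2 CPM (prior count 2) of its anti-GAA library minus that of its control library. Alternatives were DESeq2 1.42.0, its size factors or library totals in edgeR, no filter or a mean of at least 1 CPM, the replicate number as a block, offsets for length and GC (mgcv 1.9.3), an adjusted p under 0.1, a prior count of 0.5, other transcripts, and each library left out. Tests were checked on simulated counts, drawn with a dispersion near that of the fit with the block. A minimum share of recovered changes was required only of that fit. The check therefore does not show what the main fit recovers at its own, larger dispersion. Symbols, exon lengths, positions and transcripts came from GENCODE 44 on GRCh38, joined by identifier (52181 of 63677 genes), with no position carried over from hg19. The members and lists were chosen with earlier results of these data known. All members are named, and of each further list its highest and lowest gene and any past the threshold without or with the replicate number as a block. A listed marker gene is not reported here. Intervals on counts cover counting error only. Python 3.11.15, pandas 2.3.3, scipy 1.17.1 and matplotlib 3.10.9 were used for the summaries.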

Additional observations from a re-analysis of the deposited data

How the results depend on the processing

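None of the 10 firing mRNAs was called (0 by edgeR without the block), and 0 were called in each of the 13 alternative fits and at an adjusted p under 0.1. The counts over all genes moved from 0 lower and 0 higher to 207 and 51 with the replicate block, 221 and 58 with the block and the length and GC offsets together, 5 and 0 with DESeq2, 40 and 11 with DESeq2 and the block, and 111 and 5 with no filter on low counts. Libraries of the same number share only that number in the labels. Their deviations from the condition means correlated across genes at 0.564, a hint from the data, and the block lowered the common dispersion from 0.0549 to 0.0148 with 1 residual degree of freedom. With the block, TOPBP1 was at −0.40 (standard error 0.14, adjusted p = 0.173 from edgeR), the only one of the 10 with an unadjusted p under 0.05, where 16.6% of all tested genes did, and DESeq2 with the block gave it an adjusted p of 0.828. Leaving out each library in turn, where the lone library of an ASO is assumed to vary like the others, gave log2 fold changes of −0.12 to 0.21 for CDC7, −0.067 to 0.17 for DBF4, −0.40 to 0.025 for TICRR, −0.48 to 0.12 for RECQL4, −0.089 to 0.26 for CDK2, −0.35 to 0.20 for CCNE1 and −0.19 to 0.59 for CCNE2, which all cross 0, while DBF4B, TOPBP1 and MTBP kept their sign. The difference of the group medians ranged from −0.25 to 0.36. Scaling to library totals put CDC7 at −0.025, DBF4 at −0.032 and CDK2 at −0.0069. Among the further lists, WDHD1 was called with the block (adjusted p = 0.0341 from edgeR), while DESeq2 with the block called 0 genes of its list. On leaving out libraries, the medians ran from −0.11 to 0.19 in the helicase activation list, −0.53 to 0.24 in the opposing list, −0.10 to −0.03 in the regulators of cyclin E and CDK2, −0.09 to 0.15 in the E2F and RB genes, 0.06 to 0.11 in the G1/S genes and −0.13 to 0.31 in the G2/M genes. With length and GC offsets the helicase activation median was −0.0050. The cause of these changes was not tested. Counting the GAA run in any transcript raised it to 11 nt in MTBP and 7 nt in CDK2. Of the members' log2 fold changes under the alternatives, 116 values kept their sign and side of the threshold and 14 changed sign. Depth limits CCNE2, MTBP, DBF4B and GINS4, with at most 88 reads in a library.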
